A study of Mus musculus with 8 samples.

Results

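The kinesin motor genes were taken as the protein-coding mouse genes whose symbol is Kif followed by digits and an optional letter. This gave 38 of the 21896 protein-coding genes in the RefSeq annotation of GRCm38.p6, the assembly of mm10. The N6-methyladenosine (m6A) peaks of each gene were those of the Ensembl identifier at its location and on its strand. The peaks come from mouse embryonic stem cells that carry a doxycycline (Dox) switch for knockdown of Setd2, which encodes a histone methyltransferase for H3K36me3 on transcribed genes. Dox cells received 1 µg/ml Dox for 4 days, and control cells of the same kind received none. Both conditions grew feeder-free as spheres in serum-free medium with 1 µM PD0325901, an inhibitor of MEK, 3 µM CHIR99021, an inhibitor of GSK3, and 1000 U/ml LIF. The 8 libraries were Dox IP, Dox input, control IP and control input, with 2 replicates each, where IP is messenger RNA fragments pulled down with an m6A antibody and input is messenger RNA without pull-down. The labels do not say whether replicates were separate cultures. Dox-treated cells without the knockdown construct were not analysed here, and the drug and the knockdown cannot be told apart.

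Kinesins are motor proteins that use ATP to move along microtubules or to take them apart. In dividing cells they build the spindle, move and align chromosomes and cut the daughter cells apart, and between divisions they carry vesicles, endosomes, mitochondria and ciliary components. Embryonic stem cells divide fast and depend on the mitotic kinesins, while several transport kinesins are best known from neurons. The m6A mark is written on messenger RNA by the METTL3 and METTL14 complex, most often near stop codons and in long internal exons, and it affects splicing, translation and decay of the transcript.

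The authors deposited 1 peak table per condition, called on both replicates together, with 27612 Dox peaks and 25815 control peaks on all genes. Each peak has the authors' fold, a ratio of IP over input, and a log10 FDR, where a more negative value marks a stronger peak. Read depth behind the peaks is unknown, no replicate spread exists, and no difference between the conditions was tested. The values below describe these 2 tables, and the 95% intervals of percentages are exact (Clopper-Pearson), with peaks taken as independent and only counting error covered. The targeted gene, Setd2, had 6 Dox peaks with a top fold of 6.51 and 10 control peaks with a top fold of 10.2, and peaks do not measure how far the knockdown went. Among markers of cell state, 8 of 8 naive stem cell genes had peaks in both tables, against 0 of 4 primed or neural genes, 0 of 4 mesendoderm genes and 1 of 4 fibroblast genes. In either table, peaks were found on 2 primed or neural, 3 mesendoderm and 2 fibroblast genes. A peak needs enough RNA to be called, so fewer transcripts and less m6A per transcript cannot be told apart at a gene without one.

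m6A peaks were called on 28 of the 38 Kif genes, which is 73.7% (56.9 to 86.6), while 48.9% of all protein-coding genes had a peak. Every one of these 28 had a peak in Dox cells and 26 also had one in control cells. No Kif gene had control peaks only, against 8.92% of all identifiers with a peak. Kif18a and Kif9 had a Dox peak and no control peak, as did 11.1% of all identifiers. The Kif genes with a peak are long, with a median gene length of 46047 nt against 23492 nt for all named genes with a peak, and what length adds to the share was not tested. The 10 members with no peak in either table were Kif2a, Kif2b, Kif17, Kif21a, Kif6, Kif19a, Kif27, Kif12, Kif26b and Kif28. The role groups used here do not overlap, and the shares by role depend on this grouping. The members with no peak include none of the 10 motors grouped as mitotic and cytokinetic. They do include 3 of the 5 grouped as ciliary and Hedgehog and 2 of the 15 cargo motors, Kif17 and Kif21a. They also include 2 of the 4 depolymerising motors, Kif2a and Kif2b, which were not counted as mitotic. Kif3a, Kif3b and Kif24, which also act in or on cilia, had peaks but were grouped as cargo or depolymerising motors.

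Kif transcripts carried more peaks in the Dox table than in the control table, except among peaks of high fold. The members had 115 Dox peaks and 92 control peaks in all, with a median of 4 Dox peaks and 3 control peaks among members with peaks in the table concerned. More Dox than control peaks were found in 19 of the 28 members, fewer in 4 and equal numbers in 5. With folds of 4 or more the order turned, with 39 Dox peaks and 45 control peaks. It turned over all genes too, with 11394 Dox peaks and 14928 control peaks at that limit. Over all identifiers with a peak, 34.1% had more Dox peaks, 26.2% had fewer and 39.7% had equal numbers. Their median was 2 peaks in each table, among identifiers with peaks in the table concerned. Kif members thus had more peaks each, and what this adds to their share with unequal numbers was not tested. Kif members also had more exonic length under peaks in Dox, with 36850 exonic nt under Dox peaks and 24916 exonic nt under control peaks. Over all peaks the totals were 9082572 exonic nt in Dox and 7494554 exonic nt in control. Dox peaks covered more exonic nt than control peaks in 24 of the 26 members with peaks in both tables, and the same held for 65.7% of all such identifiers. The exceptions were Kif1b, with 725 nt under Dox peaks and 845 nt under control peaks, and Kif5c, with 330 nt under Dox peaks and 450 nt under control peaks.

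**Figure D1:**
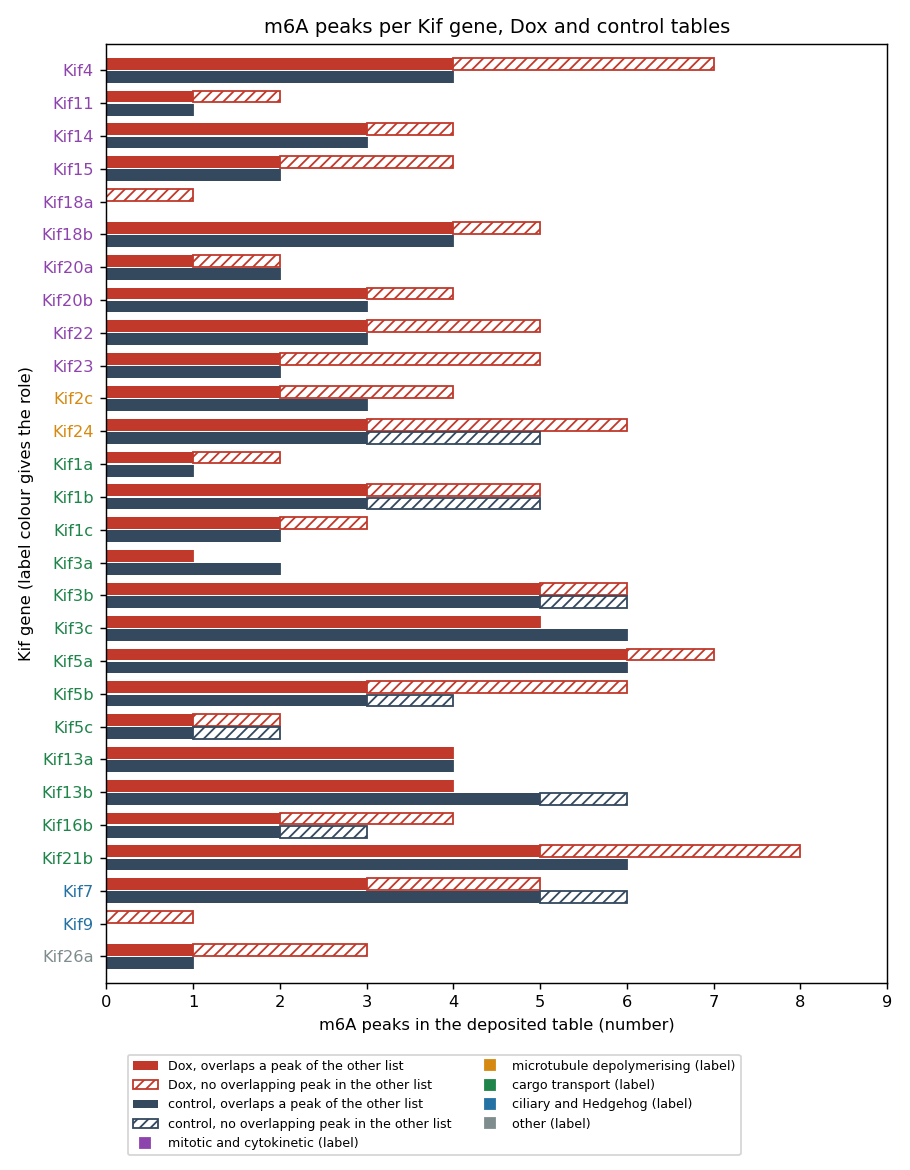
Number of m6A peaks (x axis) on each of the 28 Kif genes with a peak (rows), in the Dox table (upper bar) and the control table (lower bar); the solid part overlaps a peak of the other table and the hatched part does not, and label colours give the motor's role. Hatched Dox bars appear on 24 genes and hatched control bars on 8, none of which is a mitotic motor.

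In the full tables, a larger share of Kif Dox peaks than of Kif control peaks had no counterpart, and this did not hold among peaks of high fold. A peak counted as having a counterpart when at least 1 exonic nt of it lay under a peak of the other table on the same strand. Of the Kif peaks, 41 of 115 Dox peaks (35.7%, 26.9 to 45.1) and 10 of 92 control peaks (10.9%, 5.34 to 19.1) had none. Over all peaks the shares were 29.1% of Dox peaks, which the Kif interval covers, and 19.3% of control peaks. With folds of 4 or more in both tables the Kif shares were 43.6% in Dox and 46.7% in control, against 31.6% of Dox and 45.7% of control peaks over all genes. Most such Kif peaks were weak. Among peaks with a log10 FDR no higher than -5, 13 of 60 Kif Dox peaks (21.7%, 12.1 to 34.2) and 2 of 51 Kif control peaks (3.92%, 0.478 to 13.5) had no counterpart anywhere in the other full table, against 11.6% and 7.56% of all such peaks. Among the weaker peaks, 50.9% of Kif Dox peaks and 19.5% of Kif control peaks had none, and the shares over all weaker peaks were 52.1% for Dox and 40.4% for control.

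**Figure D2:**
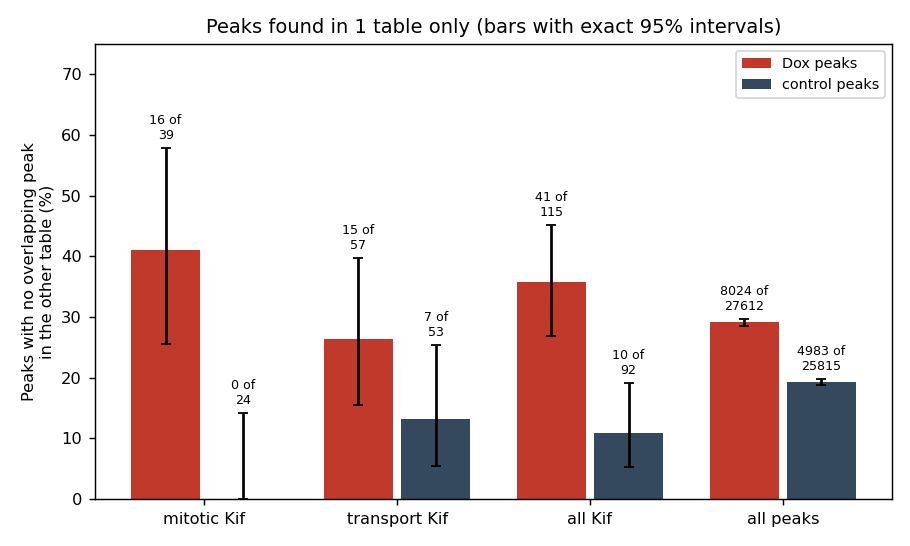
Percentage of peaks with no overlapping peak in the other table (y axis), for Dox peaks (left bar) and control peaks (right bar) of the mitotic and cytokinetic Kif genes, the cargo transport Kif genes, all Kif genes and all peaks; lines are exact 95% intervals and the counts stand above them. The mitotic Kif genes had 16 of 39 Dox peaks and 0 of 24 control peaks without a counterpart.

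Every control peak of the mitotic and cytokinetic motors had a Dox counterpart. All 10 members had Dox peaks, 9 of them had more Dox than control peaks, and Kif20a had 2 of each. Of all identifiers with a peak, 34.1% had more Dox than control peaks and 39.7% had equal numbers. Those identifiers had a median of 2 peaks in each table, while the mitotic members had medians of 4 in Dox and 3 in control. The part of peak number in this contrast was not tested. The group had 39 Dox peaks and 24 control peaks. Of these, 16 Dox peaks (41.0%, 25.6 to 57.9) had no counterpart, against 0 of 24 control peaks, for which the interval reaches 14.2%. Over all peaks the shares were 29.1% in Dox, which the mitotic interval covers, and 19.3% in control. In the authors' shorter lists, limited to p up to 1e-05 and folds from 2 upward, the numbers were 12 of 22 Dox peaks and 1 of 11 control peaks, while over all genes 22.3% of Dox and 24.0% of control peaks in those lists had none. With folds of 4 or more in both tables they were 4 of 8 Dox peaks and 2 of 6 control peaks, beside the shares over all genes given above for that limit, so the contrast was smaller among peaks of high fold.

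Kif23, which with its partner forms the centralspindlin complex that bundles midzone microtubules, had 5 Dox peaks and 2 control peaks. Its gene (ENSMUSG00000032254.9) lies on the minus strand of chromosome 9 from 61917277 to 61946810. Overlapping peaks at the 5′ end had a fold of 3.39 (log10 FDR -7.99) in Dox and 2.77 (log10 FDR -3.59) in control. Those near the 3′ end had a fold of 1.52 (log10 FDR -2.14) in Dox and 1.72 (log10 FDR -3.32) in control. The other 3 Dox peaks lay between them and overlapped no control peak. They began at 61921186, 61926398 and 61929722, with folds of 2.18, 2.17 and 2.33 and log10 FDRs of -6.75, -9.11 and -7.79. No other member had 3 peaks of that strength in 1 table only.

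**Figure D3:**
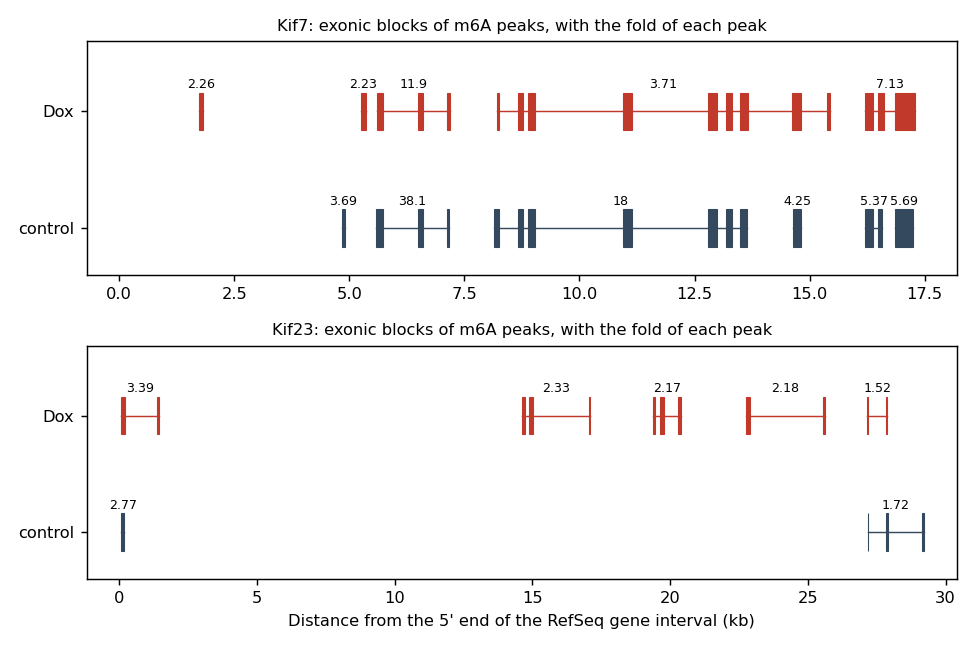
Exonic blocks of the m6A peaks of Kif7 (top) and Kif23 (bottom), with Dox peaks above control peaks, along the distance from the 5′ end of the RefSeq gene interval (x axis, kb); thin lines join the blocks of 1 peak and the number above a peak is its IP over input fold. Kif7 had folds of 11.9 in Dox and 38.1 in control at the same place, and Kif23 had 3 Dox peaks in its middle with no control peak beneath.

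Kif11, the motor that pushes spindle poles apart, had its strong peak at a different place in each condition. On chromosome 19, a Dox peak from 37416584 to 37420423 near the 3′ end had a fold of 2.38 at a log10 FDR of -12.1, and no control peak overlapped it. At the 5′ end the overlapping peaks had a fold of 1.93 (log10 FDR -2.45) in Dox and 4.35 (log10 FDR -13.7) in control. The strong peak was thus the 3′ one in the Dox table and the 5′ one in the control table. Kif15, which can stand in for Kif11 in keeping the spindle bipolar, had a Dox fold of 4.07 (log10 FDR -15.0) and a control fold of 10.9 (log10 FDR -60.1) in its main peak pair. It also had a Dox peak from 122977955 to 122979585 on chromosome 9 without a counterpart, with a fold of 2.62 at a log10 FDR of -5.92.

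Kif20a, which brings the chromosomal passenger complex to the central spindle, had the lowest log10 FDR of any member in both tables. A single Dox peak on chromosome 18 from 34630127 to 34632518 had a fold of 3.73 at a log10 FDR of -216. It spanned 927 exonic nt and lay over 2 control peaks of 510 nt together, the stronger of which had a fold of 4.54 at a log10 FDR of -292. A second Dox peak, from 34628753 to 34628940, had a fold of 1.31 at a log10 FDR of -5.29 and no counterpart. Peaks of Cdc23, which overlaps Kif20a on the opposite strand, cover part of the same positions, with folds up to 2.81 in Dox and 1.91 in control. The sources used here do not say whether peak calling used strand, so reads of Kif20a and Cdc23 cannot be told apart at these positions.

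Kif22, a motor that binds chromosome arms, had higher folds in Dox cells in all 3 of its pairs. Its peak from 127035723 to 127042411 on chromosome 7, which reaches the 5′ end, had a fold of 4.70 (log10 FDR -50.7) in Dox and 2.31 (log10 FDR -4.40) in control. The 2 pairs near the 3′ end had folds of 2.17 and 2.47 in Dox, against 1.61 and 1.78 in control. Kif20b, which acts late in the separation of daughter cells, likewise had higher Dox folds in its 3 pairs, with top folds of 4.34 in Dox and 3.08 in control. In Kif14, a cytokinesis motor, the strong pair at 136468151 on chromosome 1 had a fold of 7.18 (log10 FDR -46.4) in Dox and 4.89 (log10 FDR -24.4) in control. This was the highest ratio among the 10 Kif pairs with a log10 FDR no higher than -20 in both tables. The Kif14 Dox peak there spanned 1079 exonic nt and the control peak 690 exonic nt, so the 2 folds are not over the same region. In all 3 pairs of Kif22 and all 3 of Kif20b the Dox peak was likewise the wider one.

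Kif4, a chromosome-bound motor that also works at the midzone, had 7 Dox peaks and 4 control peaks. Its strongest peak had the same bounds in both tables, 100626246 to 100626516 on chromosome X, with a fold of 4.12 (log10 FDR -15.5) in Dox and 6.92 (log10 FDR -42.9) in control. Peaks of Pdzd11 on the opposite strand cover nearly the same bases, with folds of 4.21 in Dox and 7.23 in control, and the signals of the 2 genes cannot be told apart here. The 3 Dox peaks of Kif4 without a counterpart lay between 63.7% and 90.2% of the gene's length and were weak, with log10 FDRs from -1.98 to -2.98. Kif18b, which trims astral microtubules, had a Dox fold of 3.27 (log10 FDR -32.1) and a control fold of 1.78 (log10 FDR -4.29) in 1 pair, while its pair from 102909023 to 102913032 on chromosome 11 had folds of 2.73 in Dox and 2.59 in control. Its pair from 102915552 to 102924587 had the lower fold in Dox, 2.87 (log10 FDR -38.3) against 3.57 (log10 FDR -24.2) in control. Kif18a, which damps chromosome movements at the metaphase plate, had 1 Dox peak of fold 2.86 and log10 FDR -2.29. RefSeq lists a pseudogene each for Kif4 and Kif22, and reads from such near copies could not be separated here.

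Across the 23 overlapping pairs of mitotic motors, the fold was higher in Dox in 16 and lower in 7, with a median log2 ratio of Dox over control of 0.29 (-0.18 to 0.47). With folds of 4 or more in both tables, 4 pairs remained and the median was -0.52.

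Some of these motors have peaks at the very start of the gene, and the sequences there are given to show which of the first bases lay under peaks. The stretches below are from RefSeq (GRCm38.p6), 5′ to 3′ on the gene's strand, and capitals mark bases that lay under peaks of both tables. Lower-case bases lay under a peak of 1 table or of neither.
Kif4: TCGGCGTCGGAACCGGAAGCGGATGCTCCT
Kif22: tgagcttaagggctaagacGTGTCCGCAGC
Kif18b: ggaagaaggtTGGTTCGGTGGAATCGGGTG
Kif11: gaggaggaggttcgtcctgtccggctttt
Kif15: tcctggcgtaagcgaatctcggacggggtc
Kif16b: cgctggagtggccggcggccgcggggc
The Kif4 stretch is chrX:100625918-100625947 (plus strand) and lies before the RefSeq start of the gene, within the first Kif4 peak of each table. Those Kif4 peaks were weak, with log10 FDRs of -1.78 in Dox and -2.87 in control. They share positions with Pdzd11 peaks on the opposite strand, which had folds of 10.8 in Dox and 8.61 in control. The capitals in the Kif4 stretch thus cannot be assigned to Kif4 rather than Pdzd11. The Kif22 stretch is chr7:127042371-127042400 (minus strand), and the Kif18b stretch is chr11:102925075-102925104 (minus strand). The Kif18b peaks over it were weak too, with log10 FDRs of -1.60 in Dox and -2.40 in control. In Kif11, at chr19:37376403-37376431 (plus strand), these bases lay under the wider control peak only. Conversely, in Kif15, at chr9:122951101-122951130 (plus strand), they lay under a Dox peak only, of fold 3.01 and log10 FDR -2.03. The Kif16b stretch, chr2:142901415-142901441 (minus strand), lay under a control peak only, of fold 5.33 and log10 FDR -2.60. GGAC, a frequent form of the m6A consensus, was found on the sense strand in the Kif15 stretch and in none of the other 5. It was searched on the sense strand and on both strands in the first 50 bases of all starts in the promoter table, which holds 31 of the 38 members. On the sense strand 10 of 35 Kif windows (28.6%) held it, against 18.9% of all windows, and on either strand 48.6% of Kif windows and 33.3% of all windows did. The sense-strand windows with GGAC include those of Kif2a, Kif2b, Kif6 and Kif21a, which had no peak in either table. The difference from all windows was not tested.

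The microtubule depolymerising motors followed with 10 Dox peaks and 8 control peaks on 2 of 4 members. Kif2c, which removes tubulin at faulty kinetochore attachments, had 4 Dox peaks and 3 control peaks. On chromosome 4, its pair from 117171755 to 117174517 had folds of 2.95 (log10 FDR -62.4) in Dox and 2.80 (log10 FDR -57.9) in control. Near its 3′ end, a Dox peak of 867 nt with a fold of 3.03 (log10 FDR -55.0) lay over 2 control peaks of 420 nt together, of which the main partner had a fold of 1.97 (log10 FDR -19.8). A further Dox peak, from 117174906 to 117178057, had a fold of 2.19 at a log10 FDR of -7.99 without a counterpart. Kif24, which restrains cilium formation at the mother centriole, had 6 Dox peaks and 5 control peaks, most of them weak. Its exception was a control peak from 41454878 to 41455266 on chromosome 4, with a fold of 13.2 at a log10 FDR of -9.90, that no Dox peak overlapped. This was the stronger of the 2 Kif control peaks with a log10 FDR no higher than -5 without a counterpart.

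The cargo transport motors had peaks on 13 of 15 members, all in both tables, with 57 Dox peaks and 53 control peaks. More Dox peaks were found in 6 members, fewer in 3 and equal numbers in 4. Of the peaks, 15 of 57 Dox peaks (26.3%, 15.5 to 39.7) and 7 of 53 control peaks (13.2%, 5.48 to 25.3) had no counterpart, and both intervals cover the shares over all peaks, 29.1% in Dox and 19.3% in control. With log10 FDRs no higher than -5 in both tables the shares were 37.5% of cargo Dox peaks and 31.2% of cargo control peaks, against 22.3% and 21.0% over all genes. With folds of 4 or more the order turned, with 10 of 25 Dox peaks and 14 of 30 control peaks. It turned over all genes too, where the shares at that limit were 31.6% in Dox and 45.7% in control. Over their 42 pairs the fold was lower in Dox in 24 and higher in 18, with a median log2 ratio of -0.24 (-0.53 to 0.09). The interval of the mitotic pairs' median overlaps this one, and the difference between the groups was not tested.

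Among the conventional kinesin heavy chains, Kif5b, the form found in most cells, had 6 Dox peaks and 4 control peaks on chromosome 18. Its strongest peak had the same bounds in both tables, 6211009 to 6213566, with a fold of 4.41 (log10 FDR -50.2) in Dox and 5.58 (log10 FDR -66.0) in control. At the 5′ end the fold was 2.68 (log10 FDR -3.25) in Dox and 8.02 (log10 FDR -33.6) in control. The Dox table had 2 further strong peaks that no control peak overlapped, from 6203695 to 6209137 with a fold of 2.45 at a log10 FDR of -17.0, and from 6213955 to 6214588 with a fold of 3.39 at a log10 FDR of -7.51. The first of them had the lowest log10 FDR of all Kif peaks without a counterpart, and a peak of another identifier on the opposite strand shares positions with the second. Kif5b thus had a weaker 5′ peak and more peaks inside the gene in the Dox table.

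Kif5a, a neuronal form, had 7 Dox peaks and 6 control peaks on chromosome 10. Its pair from 127238864 to 127242716 had a fold of 5.24 (log10 FDR -32.0) in Dox and 10.1 (log10 FDR -66.2) in control, the lowest ratio of the 10 strong Kif pairs. In its pair at 127230950 the order was the other one, with a fold of 4.76 (log10 FDR -20.1) in Dox and 1.73 (log10 FDR -1.76) in control. The Dox peak of that pair spanned 270 exonic nt and the control peak 60 exonic nt, so the 2 folds are not over the same region. Kif5c, the other neuronal form, had 2 peaks in each table. Its overlapping pair had folds of 3.52 (log10 FDR -2.59) in Dox and 16.6 (log10 FDR -8.44) in control. A control peak from 49757369 to 49757518 on chromosome 2, with a fold of 14.1 at a log10 FDR of -5.21, had no counterpart.

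The subunits of kinesin-2, the motor of transport within cilia, differed among themselves. Kif3b had 6 peaks in each table, and its Dox folds were higher in all 5 pairs. The widest gap was at 153316934 on chromosome 2, with a fold of 7.48 (log10 FDR -11.7) in Dox and 3.38 (log10 FDR -5.01) in control. A Dox peak at its 3′ end, from 153332641 to 153332911, had a fold of 3.95 at a log10 FDR of -9.86 and no counterpart. Its partner Kif3a had 1 Dox peak of fold 10.3 (log10 FDR -4.59) over 2 control peaks, of which the main partner had a fold of 9.74 (log10 FDR -19.7). Kif3c had 5 Dox peaks and 6 control peaks, 4 of each with their midpoint in the first 10% of the gene's length. The fold at 3366956 on chromosome 12 was 5.27 (log10 FDR -8.20) in Dox and 19.2 (log10 FDR -44.4) in control. The Dox peak there runs on to 3389689 and also covers a second control peak, so the 2 folds are not over the same region. At 3365461 it was 10.0 (log10 FDR -7.02) in Dox and 2.95 (log10 FDR -2.02) in control. Between them, at 3366448, single-block peaks had a fold of 4.46 (log10 FDR -4.52) in Dox and 9.23 (log10 FDR -5.94) in control, so neighbouring pairs of Kif3c differed in opposite directions. The folds of 10.0 and 9.23 fall in the range of coarse folds described below. Its 3′ peak shares positions with a peak of another identifier on the opposite strand.

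Kif21b, a motor that limits microtubule growth, had the most peaks of any member, 8 in Dox and 6 in control. Its Dox peak from 136149987 to 136154262 on chromosome 1 had a fold of 6.25 (log10 FDR -42.0) over 2 control peaks, the main one with a fold of 6.36 (log10 FDR -15.6). A pair of Dox peaks near the 3′ end, at 136173602 and 136175603, had folds of 4.88 and 2.49 with log10 FDRs of -5.29 and -5.24 and no counterpart. Kif1c, a carrier of dense-core vesicles, had a fold of 7.12 (log10 FDR -69.7) in Dox and 10.3 (log10 FDR -67.2) in control in its main pair on chromosome 11. It also had a Dox peak without a counterpart from 70708551 to 70709019, with a fold of 2.08 at a log10 FDR of -6.42. In Kif13a, an endosomal motor, all 4 peaks of each table overlapped one another. One of its pairs, from 46750466 to 46752819 on chromosome 13, had a fold of 8.82 (log10 FDR -44.9) in Dox and 6.58 (log10 FDR -36.8) in control, and in the other 3 the fold was lower in Dox. Its relative Kif13b had a Dox peak of fold 6.78 (log10 FDR -65.2) over 2 control peaks, the main one of fold 8.20 (log10 FDR -57.5).

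Kif16b, which moves early endosomes, had folds of 5.91 (log10 FDR -14.0) in Dox and 16.0 (log10 FDR -55.2) in control in its strongest pair, at 142712107 on chromosome 2. Kif1a and Kif1b, which carry synaptic vesicle precursors in neurons, had weak peaks of high fold. Kif1a had a top fold of 15.2 (log10 FDR -2.86) in Dox, without a counterpart, and 17.2 (log10 FDR -3.21) in control. Kif1b had a top fold of 7.59 (log10 FDR -2.26) in Dox and 20.9 (log10 FDR -4.13) in control, neither with a counterpart. Folds of this kind are coarse: among all peaks at log10 FDRs above -8 with folds of 8 to 40, 80.4% of Dox folds and 77.3% of control folds are, within the rounding of the deposited folds, whole multiples of one step, 1.0845 in Dox and 1.23 in control. Kif peaks in that range numbered 8 in Dox and 8 in control, of which 5 in Dox and 4 in control were such multiples. Peaks in that range include the Dox peaks of Kif9 and Kif26a, the Kif1b control peak of fold 20.9 and the Kif5c control peak of fold 14.1. The Dox peaks of Kif3a (fold 10.3) and Kif3c (fold 10.0) and the Kif3c control peaks of folds 8.20 and 9.23 are in it too.

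Kif7, the motor at the tip of the primary cilium that tunes Hedgehog signalling, had the highest control fold of any member. At 79708578 to 79710164 on chromosome 7 the fold was 11.9 (log10 FDR -8.40) in Dox and 38.1 (log10 FDR -34.4) in control. Its next peak had a fold of 3.71 (log10 FDR -6.78) in Dox, over 1288 exonic nt and a second control peak, and 18.0 (log10 FDR -37.0) in control. At the 3′ end, a Dox peak of fold 7.13 (log10 FDR -8.37) lay over 2 control peaks, the main one with a fold of 5.69 (log10 FDR -8.11). The 2 internal peaks of Kif7 thus had lower Dox folds while the one at the 3′ end did not. Kif9, a motor of motile cilia and sperm tails, had a single Dox peak from 110514450 to 110514599 on chromosome 9, with a fold of 16.3 at a log10 FDR of -3.13. The gene ends 7326 nt before the start of Setd2 on the same strand. Kif26a, which lacks motor activity, had 3 Dox peaks with folds of 10.8 to 13.0 and 1 control peak with a fold of 13.5, all at log10 FDRs from -3.01 to -2.06.

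Kif peaks had median folds below those of all peaks, by less than their intervals, and in the full tables about as many Kif pairs had a higher as a lower Dox fold. The median fold was 3.20 (2.89 to 3.62) for Kif Dox peaks and 3.83 (3.22 to 5.33) for Kif control peaks, against 3.51 for all Dox peaks and 4.62 for all control peaks. Over the 74 Kif pairs the median log2 ratio of Dox over control was 0.07 (-0.30 to 0.17), while over all 18842 pairs it was -0.30. The Dox fold was lower in 36 of the 74 Kif pairs (48.6%, 36.9 to 60.6), against 66% of all pairs. It was at least 2 times lower in 16 Kif pairs (21.6%; 20.7% of all pairs) and at least 2 times higher in 4 (5.41%; 3.29% of all pairs). Those 4 were in Kif22, Kif3b, Kif3c and Kif5a. Kif control peaks were weaker than control peaks in general, with a median log10 FDR of -5.39 against -8.75, and the Dox medians were -5.29 for Kif peaks and -6.42 for all peaks. The part of peak strength in the ratio was not tested. In the 10 Kif pairs with a log10 FDR no higher than -20 in both tables the median log2 ratio was -0.28, against -0.48 in all such pairs. With folds of 4 or more in both tables the Dox fold was lower in 16 of 22 Kif pairs (72.7%), against 75.8% of all pairs, and the Kif median was -0.34, against -0.49 over all pairs.

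**Figure D4:**
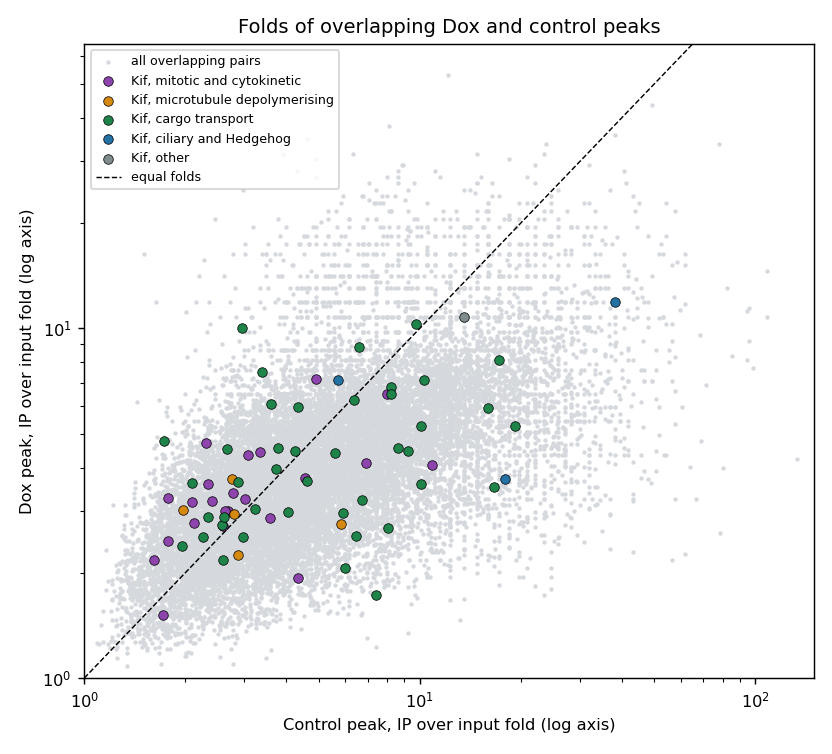
IP over input fold of the Dox peak (y axis, log scale) against that of the overlapping control peak (x axis, log scale) for all 18842 pairs (grey) and the 74 Kif pairs, coloured by the motor's role; the dashed line marks equal folds. The mitotic pairs lie above the line in 16 of 23 cases, while 66% of all pairs lie below it. The Kif pairs of highest control fold, 38.1 in Kif7 and 19.2 in Kif3c, lie below it too.

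Kif peaks often spanned several exonic blocks, and most pairs had the wider peak in Dox. Peaks of 2 or more exonic blocks made up 60.9% of Kif Dox peaks (42.7% of all Dox peaks) and 53.3% of Kif control peaks (41.2% of all control peaks). The Dox peak was the wider one in 53 of 74 Kif pairs (71.6%), against 58.8% of all pairs. Dox peaks over 2 control peaks were seen 8 times (6.96% of Kif Dox peaks; 8.18% of all Dox peaks), in Kif13b, Kif20a, Kif21b, Kif2c, Kif3a, Kif3c and, with 2 of them, Kif7. The reverse, a control peak over 2 Dox peaks, occurred 0 times among 92 Kif control peaks, for which the interval reaches 3.93%, while 4.93% of all control peaks did so. Identical bounds in both tables were found in 3 Kif pairs, 1 each in Kif1b, Kif4 and Kif5b.

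Peaks sat mostly inside Kif genes, away from both ends. The shares over all genes in this paragraph are of peaks on named genes of at least 3000 nt. No more than 500 nt from the RefSeq 5′ end lay 8 of 115 Dox peaks (6.96%; 7.97% of all such Dox peaks) and 9 of 92 control peaks (9.78%; 13.5% of all such control peaks). Within 1000 nt of the 3′ end lay 8 Dox peaks (6.96%; 15.6% of all) and 5 control peaks (5.43%; 14% of all). Of the Dox peaks without a counterpart, 37 lay between the ends, 3 at the 3′ end and 1, in Kif15, at the 5′ end. The 2 control peaks without one at a 5′ end were weak peaks of Kif16b and Kif5b, so 22.2% (2.81 to 60.0) of the 9 Kif control peaks there lacked a Dox peak, against 38.8% of all control peaks at 5′ ends. The Kif5b one lies within the bounds of a stronger Kif5b control peak that does overlap a Dox peak, and both are counted among the 9. Exon numbers, coding regions and untranslated regions were not assigned, as the annotation used here gives gene intervals only.

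**Figure D5:**
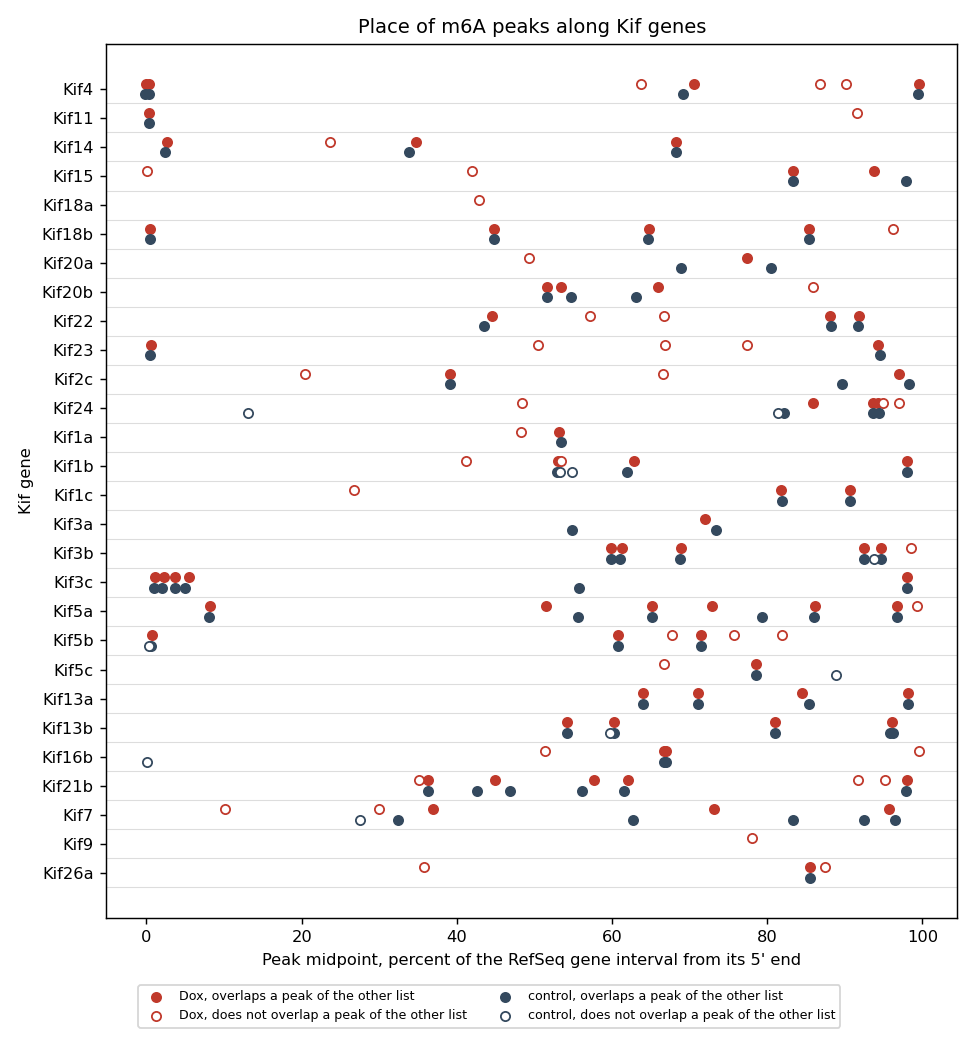
Midpoint of each Kif peak as a percentage of the RefSeq gene interval from its 5′ end (x axis), for Dox (upper row of each gene) and control (lower row); filled points overlap a peak of the other table and open points do not. Open Dox points are spread along the genes, and 4 Dox and 4 control peaks of Kif3c have their midpoint in its first 10%.

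Genes that work beside the Kif motors also carried peaks in both conditions. Of 32 other motor genes, namely minus-end kinesins and Cenpe, kinesin partners, and dynein with dynactin, 30 had peaks, all of them in both tables, while 48.9% of all protein-coding genes had one. They had 100 Dox peaks and 87 control peaks, of which 23 Dox peaks (23.0%) and 4 control peaks had no counterpart, against 29.1% of Dox and 19.3% of control peaks over all genes. Cenpe, the kinetochore motor that carries chromosomes to the metaphase plate, had 8 Dox peaks and 5 control peaks, of which 4 Dox peaks and 1 control peak were unmatched. The dynein heavy chain Dync1h1 had 15 Dox peaks and 14 control peaks, of which 5 Dox peaks and 0 control peaks were unmatched.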

How the data were processed

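Libraries were made with a stranded kit from purified, sonicated messenger RNA, per the labels' protocols, and mapped to mm10 with TopHat2 2.1.1 after FastQC 0.11.5, as the submitters' processing notes name these tools and the build. The authors deposited 1 exomePeak table and 1 shorter list per condition, pooling both replicates, and the sources used here do not give exomePeak's version, settings or annotation. Per the file headers, a peak's fold is a ratio of IP over input, whose scaling is not given, and the log10 of p and of FDR are treated as scores. A separate deposited column holds the p-value. The shorter lists were checked to equal p up to 1e-05 with folds from 2 upward (15500 Dox and 16914 control peaks, 0 disagreements).

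Symbols came from position: each identifier took the protein-coding RefSeq gene around most (50% or more) of its midpoints, on the same strand where known. A tie was settled when the other gene belonged to an identifier of the opposite strand, and 1 identifier was kept per gene. This named 10710 of 13110 identifiers, which carry 90.3% of Dox and 89.8% of control peaks. Counterparts shared at least 1 exonic nt on the same strand, pairs were reciprocal best matches by shared nt, and a midpoint was the middle of the exonic length. Coordinates are 1-based. Medians carry 95% intervals from order statistics. Overlap calls were tested on simulated peaks.

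Single peaks are named for members with peaks in 1 condition, the members with most peaks, lowest FDRs or highest folds, the most extreme strong pairs, and unmatched peaks with a log10 FDR no higher than -5; Kif20b, Cenpe, Dync1h1 and the gene starts shown were chosen after their values were seen. The members and lists were chosen with earlier results of these data known. Alternatives were the shorter lists, stricter FDR and fold limits, a 50% overlap, every identifier per gene, and other end windows. Python 3.11.15, numpy 2.4.6, pandas 2.3.3, scipy 1.17.1 and matplotlib 3.10.9 were used.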

Additional observations from a re-analysis of the deposited data

How the results depend on the processing

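Of 61 values recomputed under the alternatives, 43 stayed within a set range of those reported and 18 moved. The range was the 95% interval of the reported value or, for counts, a ratio of up to 1.5. Wide intervals thus let some values differ clearly and still count as staying. The numbers of Kif peaks were 67 Dox and 55 control in the shorter lists, 60 and 51 with log10 FDRs no higher than -5 in both tables, and 39 and 45 at a fold of 4 or more, where the order of the conditions was the other one. Over all genes there were 11394 Dox and 14928 control peaks at that fold limit. The median Kif fold was 3.63 in Dox and 5.37 in control in the shorter lists, 3.67 and 5.37 at the FDR limit, and 6.07 and 6.92 at the fold limit. Peaks with no counterpart made up 43.3% of Kif Dox and 23.5% of Kif control peaks at the FDR limit (22.3% and 21% of all peaks), and 43.6% and 46.7% at the fold limit (31.6% and 45.7% of all peaks), where the contrast between the conditions turned. The median log2 ratio of Dox over control in pairs, 0.07 as reported with an interval that covers 0, was below 0 in the shorter lists (-0.03), at the FDR limit (-0.13) and at the fold limit (-0.34). With end windows of 300 and 500 nt, 1.74% of Dox and 1.09% of control peaks lay at the 3′ end. With windows of 1000 and 2000 nt, 12.2% of Dox and 13.0% of control peaks did. The limits on FDR and fold leave fewer peaks by construction, so a peak can lose its counterpart to the limit. Leaving out Kif peaks that share positions with a peak on the opposite strand, an alternative chosen after seeing the data, gave 109 Dox and 87 control peaks, 35.8% and 11.5% of them without a counterpart, and a median log2 ratio of 0.08. No paired analysis was possible because each table pools both replicates, which also leaves no way to omit a replicate. Depth is unknown, so whether a missing peak is below detection cannot be told.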
